A study of Schmidtea mediterranea with 6 samples.

Results

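Post-2a and Post-2b are a pair of posterior-class HOX genes of the planarian *Schmidtea mediterranea*. They were chosen by identifier, as the transcripts SmedASXL_008903 and SmedASXL_008593 that the study's list of HOX genes gives for these names, and both had a row among the 24578 transcripts scored. The study's list carries the in situ label radial and body edge for both genes, and adds the central nervous system for Post-2b. The study also reports Post-2b in stem cells, marked by piwi-1. RNA was sequenced from 6 anterior–posterior (A–P) zones of wild-type animals of CIW4, a clonal asexual strain kept on beef liver and starved for 1 week. No animal carried a transgene or received RNAi, and the amputation that made the zones is the sole treatment in the labels. Zone 1 was the head tip, cut at the rear of the photoreceptors. Zone 2 ended behind the brain, zone 3 at the front of the pharynx, zone 4 at its rear, and zone 5 halfway from there to the tail tip. Zone 6 was the tail tip. Repeat collections of a zone were mixed before sequencing, so each zone has 1 library of pooled animals and no replicate spread could be measured. The number of animals is given as 5 in the sample labels and as 10 in the series text, while the study's methods describe collections of 5 animals made in triplicate for each zone.

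HOX genes encode homeodomain transcription factors that pattern the body axis in most animals studied. The posterior class is represented by Abd-B in insects and by Post-1 and the Post-2 group in lophotrochozoans, and its members are typically expressed towards the tail. In adult planarians positional information stays active throughout life, and the body edge, where dorsal and ventral surfaces meet, is a patterned boundary of its own. A cut across the body yields a zone that holds edge and centre together. The radial label can therefore not be checked against these zones, which report the A–P axis alone.

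The deposited value for each transcript and zone is a signed score. Its size is −log10 of the unadjusted p-value of the zone against the other 5 zones, and it carries a plus sign when the zone exceeded the others and a minus sign when it fell short of them. A score of 1.30 in size lies at a p-value of 0.05. Since a p-value reflects abundance and precision as well as the size of a difference, a score is neither a level nor a fold change, and scores of different genes do not rank their levels. The read counts behind the scores were not analysed here and the depth of each library is unknown beyond the minimum of 52000000 reads in the labels. In whole-zone RNA, fewer expressing cells and less RNA per cell cannot be told apart.

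Post-2a had its highest score in the tail tip and its second highest in the head tip, with every zone in between below 0. From zone 1 to zone 6 its score was 1.21 at the head tip, −0.58 around the brain, −1.16 ahead of the pharynx, −1.80 at the pharynx, −0.07 in the front tail and 2.28 at the tail tip. The scores thus went down from the head tip to the pharynx and up again to the tail tip. The unadjusted p-value was 0.00527 at the tail tip, where the gene was higher, and 0.0159 at the pharynx, where it was lower. It was 0.0623 at the head tip and 0.0689 ahead of the pharynx, both short of 0.05. The deposited zone code for Post-2a names zone 6 alone, since a zone enters the code at a positive score and an unadjusted p-value under 0.05.

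Post-2b also scored highest in the tail tip and lowest in the zone of the pharynx, but its head tip stayed next to 0. Its score was −0.05 at the head tip, −0.19 around the brain, −0.52 ahead of the pharynx, −0.62 at the pharynx, 0.19 in the front tail and 1.60 at the tail tip. Both tail zones were above 0 and the 4 zones in front of them below 0. The unadjusted p-value was 0.025 in zone 6, and in the other 5 zones it lay between 0.24 (zone 4) and 0.898 (zone 1). The zone code of Post-2b was likewise zone 6 alone.

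**Figure D1:**
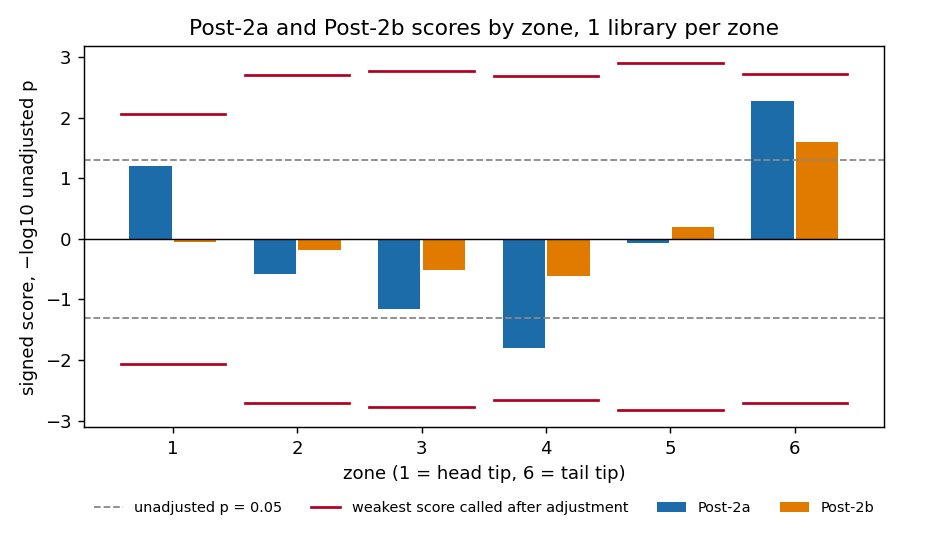
Signed score of Post-2a and Post-2b (y axis, −log10 of the unadjusted p-value, plus where the zone exceeded the others) in each of the 6 zones (x axis, 1 library each). Dashed lines mark an unadjusted p-value of 0.05 and red lines the weakest score called after Benjamini-Hochberg adjustment in that zone; both genes pass the dashed line in zone 6, Post-2a also in zone 4, and no bar reaches a red line.

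Neither gene passed in any zone once p-values were adjusted over all 24578 transcripts. With Benjamini-Hochberg adjustment of the deposited edgeR exact test p-values within each comparison, 0 of the 12 values of the members (6 zones for each gene) were under 0.05, beside 5.98% of the values of all transcripts. At an unadjusted p-value under 0.05 there were 3 of 12, beside 10.2% of all values. Benjamini-Hochberg adjustment called 0.321% of all transcripts higher in zone 6 and 2.57% lower in zone 4. At an unadjusted p-value under 0.05 both members were among the 0.915% of transcripts higher in zone 6, and Post-2a was among the 5.01% lower in zone 4. The Benjamini-Hochberg p-value of Post-2a was 0.116 in zone 6 and 0.271 in zone 4, and that of Post-2b was 0.409 in zone 6. The weakest score called higher in zone 6 was 2.72, which Post-2a missed by 0.44 and Post-2b by 1.12 units of score. A single correction for reading 6 zones per gene (Bonferroni) gave 0.0316 for Post-2a and 0.15 for Post-2b in zone 6. With single libraries, a missed threshold is no evidence of even expression along the axis.

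The place of a score among all transcripts shows how unusual it was within its own comparison. In zone 6 Post-2a ranked 105 and Post-2b 170 of 24578 from the highest score, which is the top 0.427% and 0.692%. In zone 1 Post-2a ranked 4248 from the highest, the top 17.3%, in a comparison where 16.3% of all transcripts were higher at an unadjusted p-value under 0.05. A positive score near the threshold was therefore frequent in the head tip and infrequent in the tail tip. Post-2b ranked 13670 in zone 1, behind about 55.6% of the transcripts. Counted from the lowest score, Post-2a ranked 864 around the brain, 1617 ahead of the pharynx and 929 at the pharynx, each within the lowest 6.58%. Post-2b lay between the lowest 10.3% and the lowest 15.9% in the same zones. In zone 5, the front part of the tail, Post-2b stood at the top 17.9% and Post-2a at the top 61.6%.

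Set side by side, the paralogs differed most in the head tip. The score of Post-2a minus that of Post-2b was 1.25 at the head tip, −0.39 around the brain, −0.64 ahead of the pharynx, −1.18 at the pharynx, −0.26 in the front tail and 0.68 at the tail tip. Post-2a was thus further from 0 than Post-2b in each of the 6 zones except zone 5. The span from lowest to highest score of Post-2a was 4.08 and that of Post-2b 2.22, against a median of 1.05 over all transcripts. These differences could not be tested, since each rests on 1 library per zone and a score depends on abundance.

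The order of the zones was nearly shared by the members. Spearman's rho between the 6 scores of Post-2a and those of Post-2b was 0.943 and Pearson's r was 0.881. Outside zone 6 the scores of Post-2b lay between −0.62 and 0.19, so its order there ranks values near 0. By Pearson's r, Post-2b was number 311 in likeness to Post-2a among 24577 other transcripts (the top 1.27%), and Post-2a was number 332 in likeness to Post-2b. By Euclidean distance, which also reads the size of the scores, Post-2b was number 49 for Post-2a, whereas Post-2a was number 11374 for Post-2b (the top 46.3%). The distance itself was the same in both directions (2.01). The 2 ranks differ because more of the other transcripts lay closer to Post-2b than to Post-2a. These are descriptions over 6 zones whose scores share all libraries. In sequence the pair is also close. Their predicted homeodomains, the DNA-binding part of the protein, were identical at 52 of 60 residues (86.7%), the highest identity of the 6 pairs among the 4 Post-2 paralogs. The homeodomain of Post-2a shared 76.7% of residues with Post-2d and 70% with Post-2c, and that of Post-2b shared 81.7% and 68.3%. Whether reads were divided between the paralogous transcripts in the alignment was not tested.

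Post-2c and Post-2d, which the study's list labels as posterior gradients, share the tail tip maximum and differ from the body-edge pair towards the head. Post-2c scored −19.07 at the head tip, −13.76 around the brain, −5.21 ahead of the pharynx, −1.29 at the pharynx, 2.55 in the front tail and 14.71 at the tail tip. Post-2d scored −11.09, −10.06, −6.77, −2.07, 0.88 and 20.51 in the same zones. In zone 1, the score furthest below 0 among all 4 paralogs was that of Post-2c, while Post-2a was above 0 and Post-2b at −0.05. With Benjamini-Hochberg adjustment within the comparison, Post-2c and Post-2d were lower in zone 1 (adjusted p = 1.15e-17 and 5.00e-10), and the adjusted p-values of Post-2a and Post-2b were 0.227 and 0.975. The difference between the pairs itself could not be tested from the scores. Zone 4 was the zone where the 4 paralogs came nearest to one another, with scores between −2.07 and −0.62. By Pearson's r over the 6 zones Post-2b was almost as close to Post-2d (0.865) as to Post-2a (0.881), and with scores turned into normal quantiles the nearer of these was Post-2d (0.863 against 0.854). By Pearson's r on the scores Post-2a was further from Post-2d (0.568) and from Post-2c (0.286). By Spearman's rho, which reads the order of the zones alone, both gradient genes stood at 0.20 with Post-2a and at 0.43 with Post-2b.

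**Figure D2:**
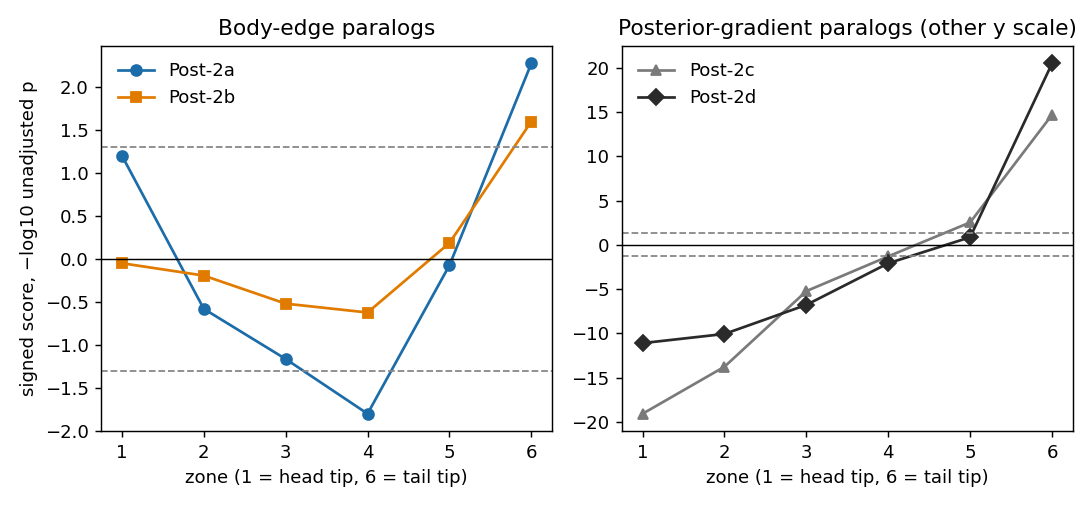
Signed scores (y axis, −log10 of the unadjusted p-value) of the 4 Post-2 paralogs along the zones (x axis), 1 library per zone, with dashed lines at an unadjusted p-value of 0.05; the panels have different y scales. Post-2a and Post-2b (left) fall from zone 1 to zone 4 and climb to 2.28 and 1.60 in zone 6, whereas Post-2c and Post-2d (right) climb in every step from −19.07 and −11.09 to 14.71 and 20.51.

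**Figure D3:**
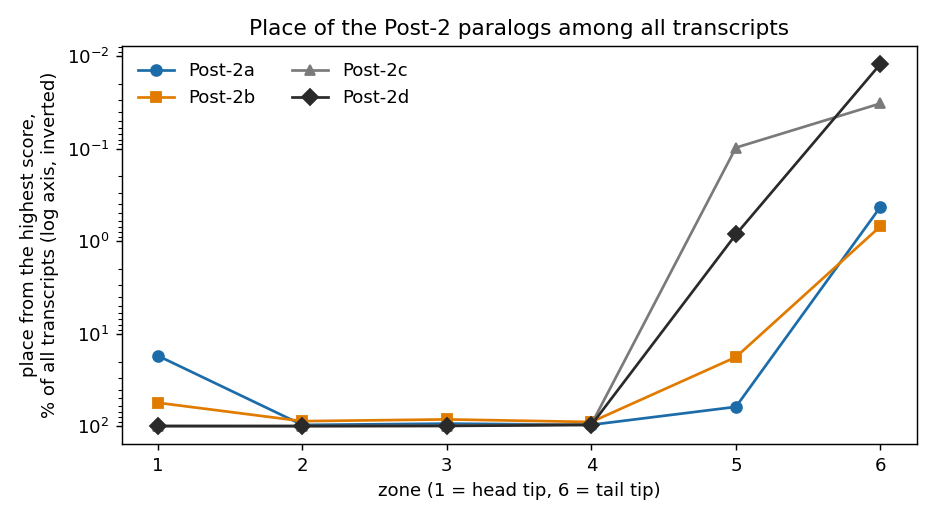
Place of each Post-2 paralog from the highest score in a zone, as a percent of the 24578 transcripts (y axis, logarithmic, the highest scores at the top), by zone (x axis). All 4 paralogs lie within the top 0.692% in zone 6, and in zone 1 Post-2a stands at 17.3% while Post-2c and Post-2d stand at 99.5% and 99.1%.

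Scores at the ends of the animal were compared with those of the middle. The mean score of zones 1 and 6 was 1.74 for Post-2a against a mean of −0.90 for zones 2 to 5, a difference of 2.64. For Post-2b the means were 0.78 and −0.29, a difference of 1.06, and the median difference over all transcripts was −0.03. Post-2a ranked 1029 from the largest difference (the top 4.19%) and Post-2b 3147 (the top 12.8%). This measure did not set the body-edge pair apart from the gradient genes, because a high tail tip raises it without any contribution of the head tip. The difference was 2.25 for Post-2c and 9.22 for Post-2d, with zone 1 far below 0 in both. A stricter shape was above 0 in both end zones and below 0 in all 4 zones between. Post-2a met it, as did 2.73% of all transcripts. Post-2b did not, since its zones 1 and 5 fell on the other side of 0. The deciding scores were small. They were −0.07 (zone 5) for Post-2a, and −0.05 (zone 1) and 0.19 (zone 5) for Post-2b.

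**Figure D4:**
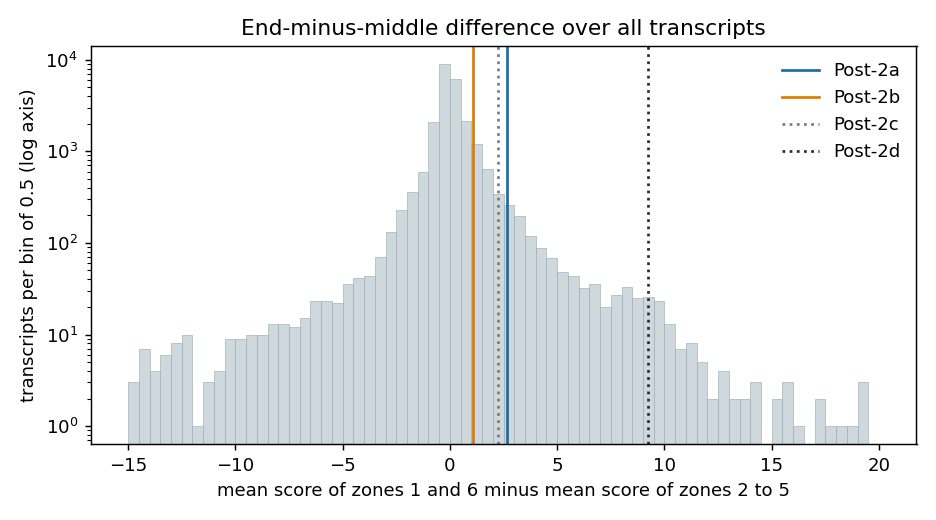
Number of transcripts (y axis, logarithmic, bins of 0.5) by the mean score of zones 1 and 6 minus the mean score of zones 2 to 5 (x axis), with lines for the 4 Post-2 paralogs; 169 transcripts lie outside the range drawn. Post-2a (2.64) and Post-2b (1.06) lie to the right of the median of −0.03, and Post-2d (9.22) lies further out than either.

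Among the 12 HOX transcripts with a row, which cover 11 of the 13 HOX genes in the study's list, the members stood in the middle of the order in the tail tip. Post-2a was number 6 and Post-2b number 7 in zone 6. Above them were Post-2d, Post-2c, Hox4b and both transcripts of Lox5a, whose scores began at 8.64, and next below Post-2b (1.60) was Hox4a at 1.59. The 5 transcripts above the members were those called higher in zone 6 after Benjamini-Hochberg adjustment, beside 0.321% of all transcripts. Without adjustment 8 of the 12 were higher there (p under 0.05), beside 0.915% of all transcripts. The median HOX score in zone 6 was 1.94, against −0.0038 over all transcripts. In zone 1 Post-2a was number 2, behind the central-class gene Lox4 (1.48), and Post-2b number 5, while 5 HOX transcripts were lower after adjustment, as were 6.06% of all transcripts. In zone 4 all 12 HOX transcripts, 2 of them from Lox5a, scored below 0, where the median over all transcripts was 0. Several lay close to 0. The HOX median was −0.51 and the score nearest 0 was −0.01. The share of all transcripts below 0 in zone 4 was not counted. None of the 12 HOX transcripts passed the adjusted threshold, beside 2.57% of all transcripts called lower there. At an unadjusted p-value under 0.05 Post-2a and Post-2d were lower, 2 of the 12, beside 5.01% of all transcripts. Post-2a was the single HOX transcript with the shape of both end zones above 0 and all zones between below 0. That shape was met by 2.73% of all transcripts, and in Post-2a it rested on the sign of a zone 5 score of −0.07.

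The transcripts most like each member were sought among the 6946 others with an unadjusted p-value under 0.05 in at least 1 zone. For Post-2a the highest Pearson's r over the 6 zones was that of SmedASXL_052568 (0.991), followed by SmedASXL_009921 (0.987). For SmedASXL_009921 the score was 1.04 in zone 1, −1.83 in zone 4 and 3.11 in zone 6. For Post-2b the first were SmedASXL_072225 (0.997) and SmedASXL_006154 (0.996). SmedASXL_072225 scored 0 in zone 1, −0.80 in zone 4 and 1.66 in zone 6, close to Post-2b in each. All 4 transcripts carry the zone code 6, as both members do, which the way they were chosen made likely in advance. The sources used here pair none of these identifiers with a gene name.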

How the data were processed

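The authors aligned untrimmed single-end reads with Bowtie2 2.2.4 to the asexual transcriptome, removed transcripts under a CPM minimum in each zone, applied TMM normalisation and ran the edgeR exact test for 1 zone at a time against the other 5. With 1 library per zone, no dispersion within a zone can be estimated. The dispersion setting is not given in the sources used here, nor whether the other 5 zones served as replicates for it. Each deposited score is the signed −log10 of the unadjusted p-value, and a deposited zone code lists zones with a positive score and p under 0.05. This code was computed again from the scores and was the same in all 24578 rows. Score and code columns are the authors' own comparisons, and no other measurement was used here, so the p-values compare 6 libraries and not animals.

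P-values were recovered from the scores and adjusted by Benjamini-Hochberg over all transcripts within each comparison (threshold 0.05). No count model could be fitted. Ranks, the end-minus-middle difference and correlations over zones are descriptions. Homeodomains were the 60-residue windows of the study's predicted proteins with the highest identity to the limpet post2 homeodomain. Named genes were both members, Post-2c and Post-2d, HOX transcripts next to a member in the order of a zone, and the 2 transcripts of highest Pearson's r per member. The members and lists were chosen with earlier results of these data known. Alternatives were other adjustments, thresholds, score scales and measures of likeness. The steps were tested on simulated data with large shifts and independent zones. That test does not cover signals of the members' size or zones that share libraries. Python 3.11.15, numpy 2.4.6, pandas 2.3.3, scipy 1.17.1 and matplotlib 3.10.9 were used.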

Additional observations from a re-analysis of the deposited data

How the results depend on the processing

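No paired analysis was possible because each zone has 1 library, and no library could be left out because the scores are finished comparisons. Without adjustment 2 zones were called for Post-2a (zones 4 and 6) and 1 for Post-2b (zone 6), with zone 6 p-values of 0.00527 and 0.025. At an unadjusted p-value under 0.01, and with Bonferroni correction over 6 zones, 1 zone was called for Post-2a (zone 6, 0.0316 with Bonferroni) and 0 for Post-2b. Benjamini-Hochberg adjustment over all 6 comparisons (smallest p 0.0844 for Post-2a and 0.293 for Post-2b) and a threshold of 0.1 within the comparison called 0 zones for either gene. Without adjustment 225 transcripts were higher in zone 6 and 1231 lower in zone 4, against 79 and 631 with it. On a scale of normal quantiles Post-2a moved from the top 4.19% to the top 1.55% in its end-minus-middle difference, and Post-2b stayed within 1.5 times its place. Post-2b was number 74 in likeness to Post-2a by Spearman's rho, and 552 by Pearson's r on normal quantiles, against 311. By Spearman's rho both transcripts named for each gene stayed in first place, tied within 15 transcripts for Post-2a and 3 for Post-2b. By Euclidean distance 0 of the 2 named for Post-2a and 1 of the 2 named for Post-2b were among the first 2. Beyond a minimum of 52000000 reads the depth of the libraries is unknown, and without counts what it limits could not be computed.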
